A study of Mus musculus with 4 samples.

Results

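The tissue effect in the mouse gut was measured as the difference in gene expression between colon and small intestine, with the library protocol held as a block. All 4 libraries of the series entered. Tissue of the small intestine and colon of C57BL/6 mice aged 9 to 10 weeks had each been sequenced by 2 protocols on the SOLiD system, with 1 library per tissue and protocol. The labels call both samples total tissue, and the methods of the study name the jejunum and the distal colon as the segments taken. The cDNA-fragmented libraries were made from polyadenylated RNA by SMART synthesis of full-length cDNA, which was then broken into fragments. The RNA-fragmented libraries were made with a whole transcriptome kit that breaks the RNA before cDNA synthesis. Their labels give RNA depleted of ribosomal RNA, whereas the methods of the study describe a selection of polyadenylated RNA for this kit too. The study also reports far larger read totals for its RNA-fragmented libraries than the deposited files give. It is therefore not known how far its methods describe the RNA-fragmented libraries used here. The labels give no treatment and no engineered allele for any library. The labels do not give the animals behind a library. The study's text describes the tissues as coming from the same individuals and gives the number of mice in all, but not which mice went into which library. The p-values of the fit with the block rest on how far the tissue ratio differed between the 2 protocols, with this spread shared over genes. No tissue had replicate libraries within a protocol, so they measure no spread between such replicates. A gene was tested when it had 50 or more uniquely placed reads over the 4 libraries, which held for 13536 of 17530 genes with any read (77.2%). A gene was called when its Benjamini-Hochberg adjusted p from limma was at or below 0.05. A called gene had a tissue effect of like size when its log2 ratios of colon to small intestine had the same sign in both protocols and differed by at most 1.

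The small intestine digests food and takes up sugars, peptides, fats and vitamins through enterocytes whose brush border carries hydrolases and transporters, and its crypts hold Paneth cells that secrete antimicrobial peptides. The colon takes back water and salt, lives with a dense microbiota, and is rich in goblet cells that build a thick mucus layer. The identity of the 2 segments is set along the body axis by transcription factors, with Gata4 known for the proximal gut and posterior Hox genes for the distal gut. The RNA came from total tissue and not from separated cells, so muscle, nerve and immune cells contribute RNA, and fewer cells of a type cannot be told apart from less RNA per cell in any result below.

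The cDNA-fragmented libraries held 22299173 counted reads for small intestine and 24596726 for colon, and the RNA-fragmented libraries 2020045 and 3449872. The RNA pair thus had far fewer reads in all, and its ratios were in general less precise. Some genes went the other way, such as Tgm3 with 9 and 2391 reads in the cDNA pair and 7 and 4016 in the RNA pair. Of the defining markers, 9 of 9 small intestine genes were called higher in small intestine and 8 of 8 colon genes higher in colon. The markers were chosen with earlier results of these data known. Some, such as Atp12a and Insl5, had almost all their reads in colon and passed the read minimum through it. These counts are therefore no independent check. A pair of marker sets, however, set the libraries apart in a way that the tissue labels do not. The first set is pancreatic acinar genes, which encode digestive enzymes that the gut wall itself is not known to make in quantity. Of 16 tested, 3 had the same sign in both pairs, and the median log2 ratio was 6.00 in the cDNA pair and -7.70 in the RNA pair. For Cela2a, a pancreatic elastase, the small intestine and colon had 0 and 5503 reads in the cDNA pair and 1312 and 8 in the RNA pair. Acinar genes were therefore high in the colon library of one protocol and in the small intestine library of the other. The second set is sex-linked genes. Xist, the transcript that silences one X chromosome in females, had 1751, 31, 9 and 5 reads in the order small intestine and colon of the cDNA pair and then small intestine and colon of the RNA pair. The Y-linked Eif2s3y had 0, 1191, 40 and 143 reads in the same order. The cDNA-fragmented small intestine library was thus high in Xist and at 0 for Eif2s3y, Kdm5d and Uty, with 19 reads of the Y-linked Ddx3y and 1 of Ube1y1, while each other library held more Y-linked reads and few Xist reads. The sex-linked reads of the cDNA pair thus differed between the tissues, which the study's text describes as coming from the same individuals. The part of these differences in the results below was not tested. Of the 16 acinar genes 13 were not called, and the called ones were Clps and Pnliprp2, higher in small intestine, and Sycn, higher in colon. Among 5 tested genes of the sex-linked list, 2 were called higher in colon and 1, Xist, higher in small intestine. That is 60% called, beside 15.0% of all tested genes, and 0 of them were of like size.

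**Figure D1:**
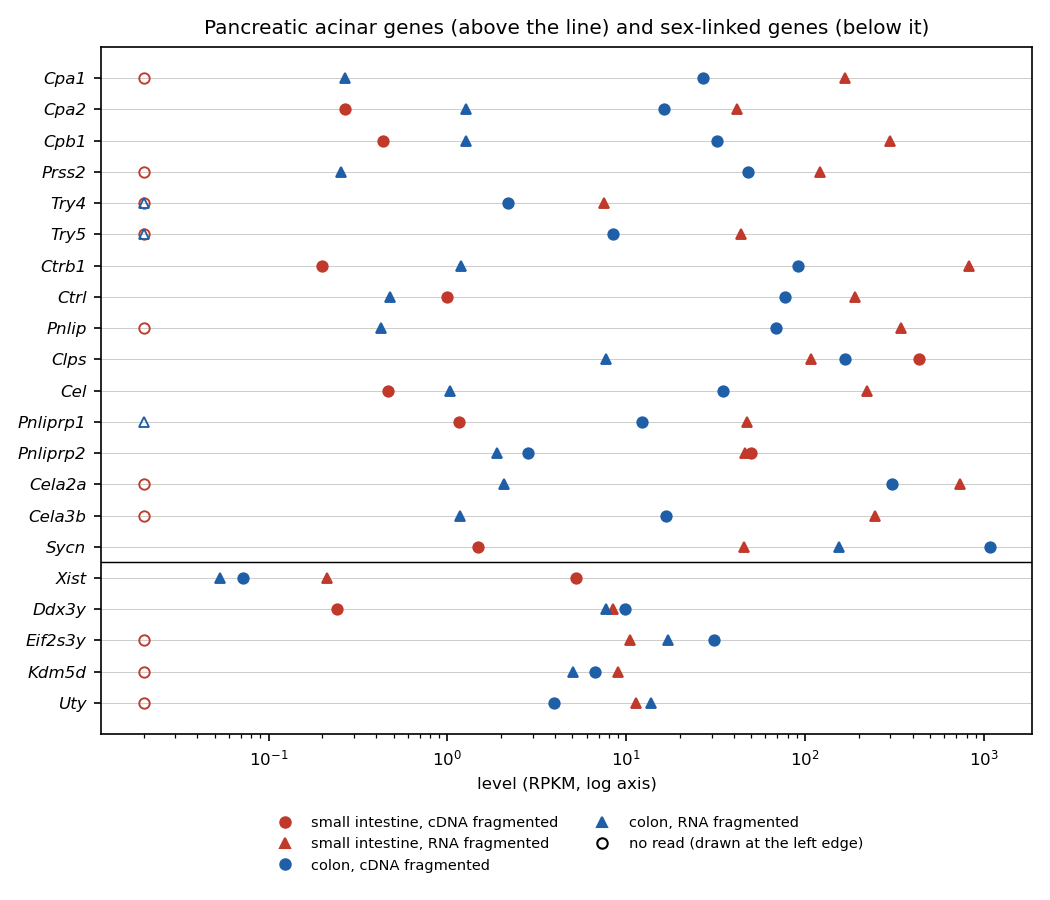
Level (RPKM, log axis) of the tested pancreatic acinar genes and sex-linked genes in the 4 libraries, with circles for cDNA-fragmented and triangles for RNA-fragmented libraries, red for small intestine and blue for colon, and open symbols for libraries with no read. For most acinar genes the colon circle and the small intestine triangle are high, and for the Y-linked genes the small intestine circle stands apart from the 3 other symbols.

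Across all tested genes, 2034 were called (15.0%), of which 1004 were higher in colon (7.42%) and 1030 higher in small intestine (7.61%). The median log2 difference was 2.18 among the genes higher in colon and -2.09 among those higher in small intestine, beside 0.10 among all tested genes, and the smallest fold called was 2.04. With libraries scaled by their total reads alone, the colon share of the calls was 67.5% in place of 49.4%, and the median over all genes was 0.38, so the balance of the directions depends on the scaling. Without the protocol as a block no gene was called by limma, and 760 genes had an unadjusted p below 0.05. With 1 library left out and tissue as the only term, 8 to 49 genes were called higher in colon and 37 to 104 higher in small intestine, whichever library it was.

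The log2 ratios of the 2 pairs were compared gene by gene. They had the same sign in 9027 of 13536 tested genes (66.7%) and in 2008 of 2034 called genes (98.7%). This second share is a description only, since a call is made from the same pairs. The size was alike in 1265 called genes (62.2%), namely 630 of 1004 higher in colon (62.7%) and 635 of 1030 higher in small intestine (61.7%), beside 6965 of 13536 tested genes (51.5%). Like size requires the same sign, which nearly all called genes have, so this comparison too is a description only. Counted over genes with the same sign alone, 1265 of 2008 called and 6965 of 9027 tested genes were of like size. Across the tested genes, Pearson's r between the ratios of the pairs was 0.64, where the points share libraries and genes are not independent replicates. The median size of the gap between the ratios was 0.69 over all tested genes and 0.74 over called genes. Neither protocol gave steadily larger ratios among all called genes of the same sign, with the cDNA ratio the larger in 963 of 2008 (48%). By direction it was the larger in 429 of 992 higher in colon (43.2%) and 534 of 1016 higher in small intestine (52.6%).

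**Figure D2:**
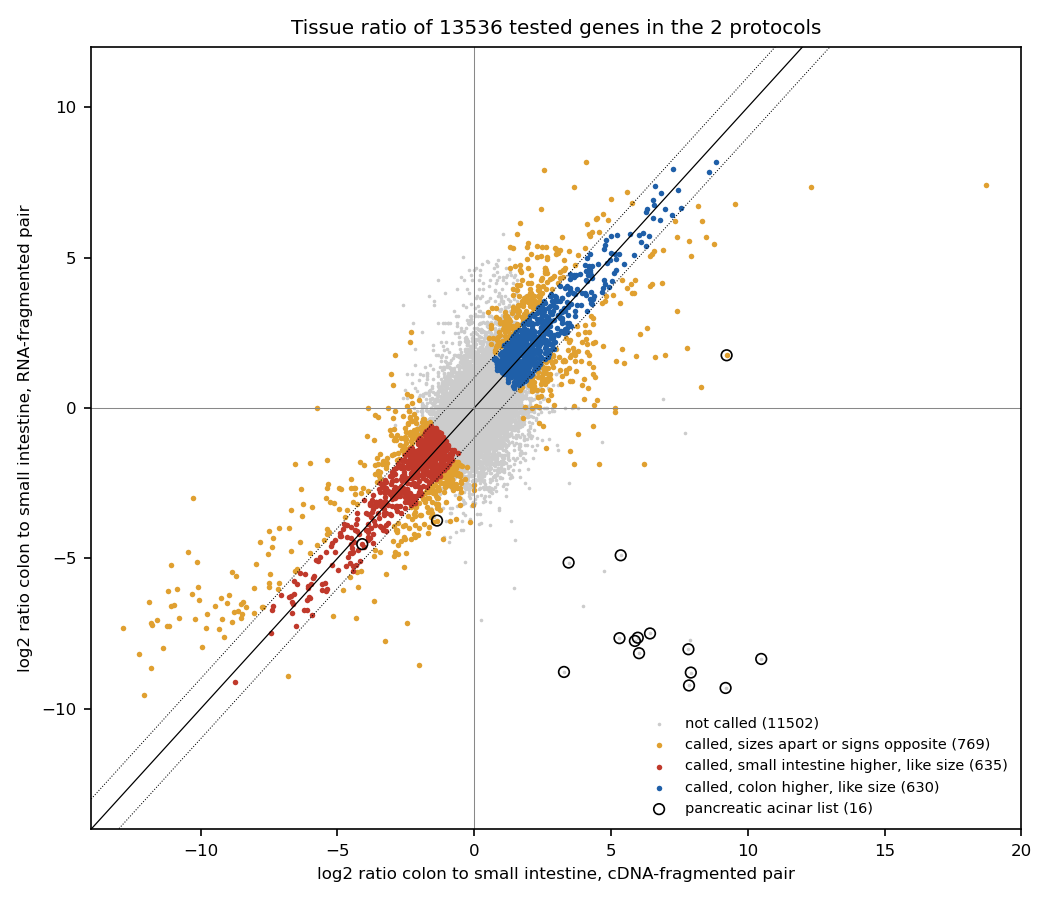
Log2 ratio of colon to small intestine in the cDNA-fragmented pair (x axis) and the RNA-fragmented pair (y axis) for the 13536 tested genes, with the line of equal ratios and dotted lines 1 log2 unit away from it. The 635 red and 630 blue points are called genes of like size, orange points are called genes outside the dotted lines, and the circled acinar genes lie mostly in the quadrant of opposite signs.

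The share of genes with a common direction moved with depth. Among genes with fewer than 10 reads in the RNA pair 58.5% had the same sign, and among those with 1000 or more 74.3% did. Called genes of like size made up 42.9% of calls in the first of these groups, 49.6% at 10 to under 50 reads, 61.6% at 50 to under 200, 69.8% at 200 to under 1000 and 66.9% above that. The share of like size also moved with the size of the ratio. Over called genes of the same sign with 50 or more reads in each pair, 560 of 708 with a cDNA log2 ratio between 1 and 2 in size were of like size (79.1%), against 3 of 52 whose cDNA ratio was 8 or more (5.77%). These 52 genes had a median size of 9.40 in the cDNA pair and 6.84 in the RNA pair. Sorted by the RNA ratio instead, 7 genes reached 8 or more in the RNA pair, with medians of 8.64 there and 8.84 in the cDNA pair. The 85 genes at 6 to under 8 in the RNA pair had medians of 6.71 there and 7.56 in the cDNA pair. The largest ratios of the cDNA pair were thus mostly smaller in the RNA pair. This is a description only, since those genes were picked by their cDNA ratio and the RNA pair had fewer reads. The part of either was not tested.

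**Figure D3:**
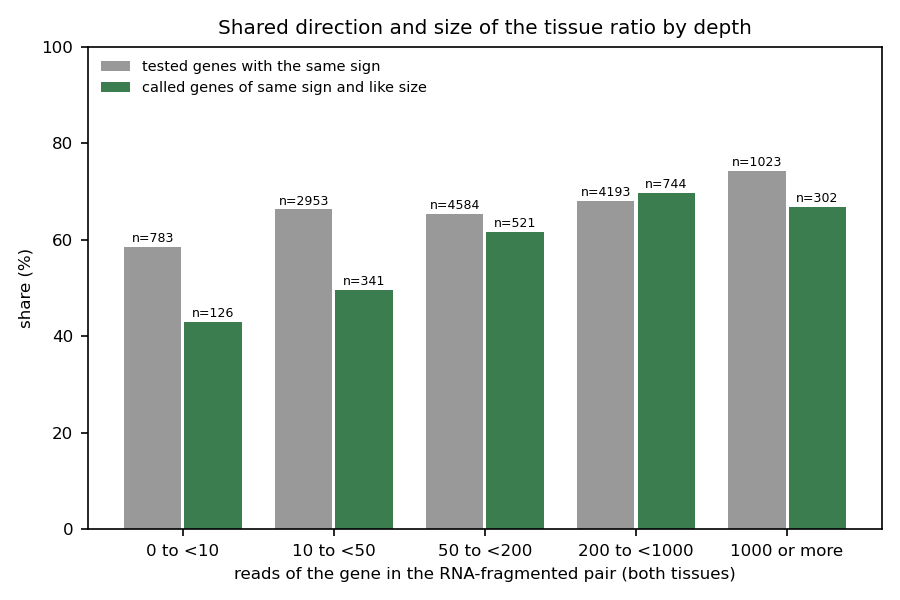
Share of tested genes with the same sign in both pairs (grey) and share of called genes with the same sign and like size (green), in percent, by the number of reads of the gene in the RNA-fragmented pair, with the number of genes above each bar. The grey bars run from 58.5% to 74.3% and the green bars from 42.9% to 69.8%.

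In what follows, 4 levels of a gene stand in the order small intestine and colon by cDNA fragmentation, then small intestine and colon by RNA fragmentation, as RPKM (reads per kilobase of exon, relative to the library size, with libraries scaled by TMM, the trimmed mean of log ratios). Log2 differences are colon minus small intestine from the limma fit. Their moderated SE rests mostly on the spread shared over genes (25.74 prior degrees of freedom beside 1 residual degree of freedom of the gene itself). Where a library had no read, the fitted difference depends on the count added before taking logs and is no bound. A ratio given as "at least" sets 3 reads in place of 0 in that library. The log2 ratio of a pair instead adds a prior count of 2, scaled to the library size, to both libraries. For a gene with no read in a library, the pair ratio depends on this prior count, and so does whether it is of like size. A call alone does not mean like size. In the cDNA-fragmented colon library this adds more than 3 reads, so the ratio of a pair with that library at 0 can be smaller than its bound. Positions are those of mm9. Each count of called members in a gene list can be read against 7.42% of all tested genes called higher in colon and 7.61% called higher in small intestine, and each list median against 0.10. Members of a list with fewer than 50 reads were not tested and are not in these counts. Some tested members passed this minimum only through the tissue where they were high, so the counts describe the tested members and not a whole list or family.

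The genes of like size with the largest effects towards the small intestine were Gm766, Tmprss15, Plb1, Nat8, Gata4, Slc5a4b, Ccl25, Slc23a1, Slc28a2 and Enpep, each with 50 or more reads in each pair. Their log2 differences lay between -10.49 and -6.73. Gm766 and Tmprss15 had no read in the cDNA-fragmented colon library, so their like size depends on the prior count. Tmprss15 (chr16:78953709-79091342) encodes enteropeptidase, the duodenal protease that switches on trypsinogen. It had 265, 0, 196 and 2 reads in the 4 libraries, so that the colon was at or near 0 by both protocols (log2 difference -8.42 ± 0.96, adjusted p = 1.7e-07), and the ratio in the cDNA pair was at least 114-fold against a floor of 3 reads. Enpep (chr3:128972095-129035667), glutamyl aminopeptidase of the brush border, stood at 311, 3.06, 389 and 3.41 RPKM. The 2 pairs gave log2 ratios of -6.65 and -6.82, a fold of 106 in the fit (adjusted p = 1.1e-12). Plb1, a phospholipase of the brush border, had levels of 38.7, 0.190, 41.6 and 0.198 RPKM and ratios of -7.44 and -7.49. For these genes the higher colon library lay far below the lower small intestine library, which is a description only, since they were chosen for large effects.

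Gata4 (chr14:63817752-63864097), a zinc finger transcription factor of the proximal intestine, had levels of 11.6, 0.0676, 33.3 and 0.311 RPKM (log2 difference -6.97 ± 0.75, adjusted p = 5.8e-08). Ccl25 (chr8:4349615-4360020) encodes the chemokine that draws T cells carrying the receptor Ccr9 to the small intestine, and stood at 2759.5, 20.6, 240.4 and 3.07 RPKM (log2 difference -6.85 ± 0.44, adjusted p = 5.0e-12). Its receptor Ccr9 was also higher in small intestine, at 8.13, 0.574, 3.57 and 0.288 RPKM (log2 difference -3.74 ± 0.56, adjusted p = 1.2e-05). Transporters of the group were Slc23a1, which takes up vitamin C (log2 difference -6.81), Slc28a2, which takes up purine nucleosides (-6.78), and Slc5a4b, a member of the sodium-glucose cotransporter family (-6.86). Nat8 had a difference of -7.53. Gm766 had 1273, 0, 720 and 2 reads, pair ratios of -8.75 and -9.12 and a cDNA ratio of at least 546-fold against the floor of 3 reads, while its fitted difference of -10.49 lay beyond both pairs.

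The genes of like size with the largest effects towards the colon were Atp12a, Retnlb, Hoxa11as, Insl5, Tgm3, Wfdc2, Fa2h, Ttll6, Sval1 and Lpo, with log2 differences from 6.85 to 9.47. Of these, Atp12a, Retnlb, Hoxa11as, Insl5, Wfdc2 and Ttll6 had no read in a small intestine library. Their like size therefore depends on the prior count and is not settled by the reads. Atp12a (chr14:56983905-57007388), the colonic proton-potassium ATPase that takes back potassium, had 0, 1468, 2 and 1207 reads and levels of 0, 17.0, 0.234 and 64.5 RPKM (log2 difference 9.47 ± 0.99, adjusted p = 3.3e-08). Its pair ratios were 8.59 and 7.86, both below the fitted difference, and the cDNA ratio was at least 380.3-fold. Retnlb (chr16:48816969-48819004), a goblet cell protein that acts on bacteria, had 4, 4095, 0 and 237 reads, so that small intestine held 4 reads in all (log2 difference 8.83 ± 0.83, adjusted p = 4.8e-09). Insl5 (chr4:102690478-102699333), a hormone of colonic L cells, had 0, 354, 1 and 366 reads (log2 difference 7.95 ± 0.96, adjusted p = 4.7e-07). The groups did not overlap for any of these genes, which is a description only, since the genes were chosen for their large effects. Hoxa11as, an antisense transcript in the Hoxa cluster, had no read in either small intestine library and 718 and 82 reads in colon, which makes it at least 186-fold higher in the cDNA pair and at least 12.5-fold in the RNA pair. The counting used no strand, so its reads cannot be told apart from reads of an overlapping gene on the other strand.

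Tgm3, a transglutaminase that cross-links proteins, stood at 0.129, 26.7, 0.786 and 206 RPKM (log2 difference 7.77 ± 0.67, adjusted p = 1.1e-09). Wfdc2, a secreted protease inhibitor, had 10, 2916, 0 and 126 reads and a log2 difference of 7.49. Fa2h, which adds a hydroxyl group to fatty acids of sphingolipids, and Lpo, a peroxidase of mucosal secretions, had differences of 7.25 and 6.85. Sval1 and Ttll6 had differences of 7.01 and 7.25.

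**Figure D4:**
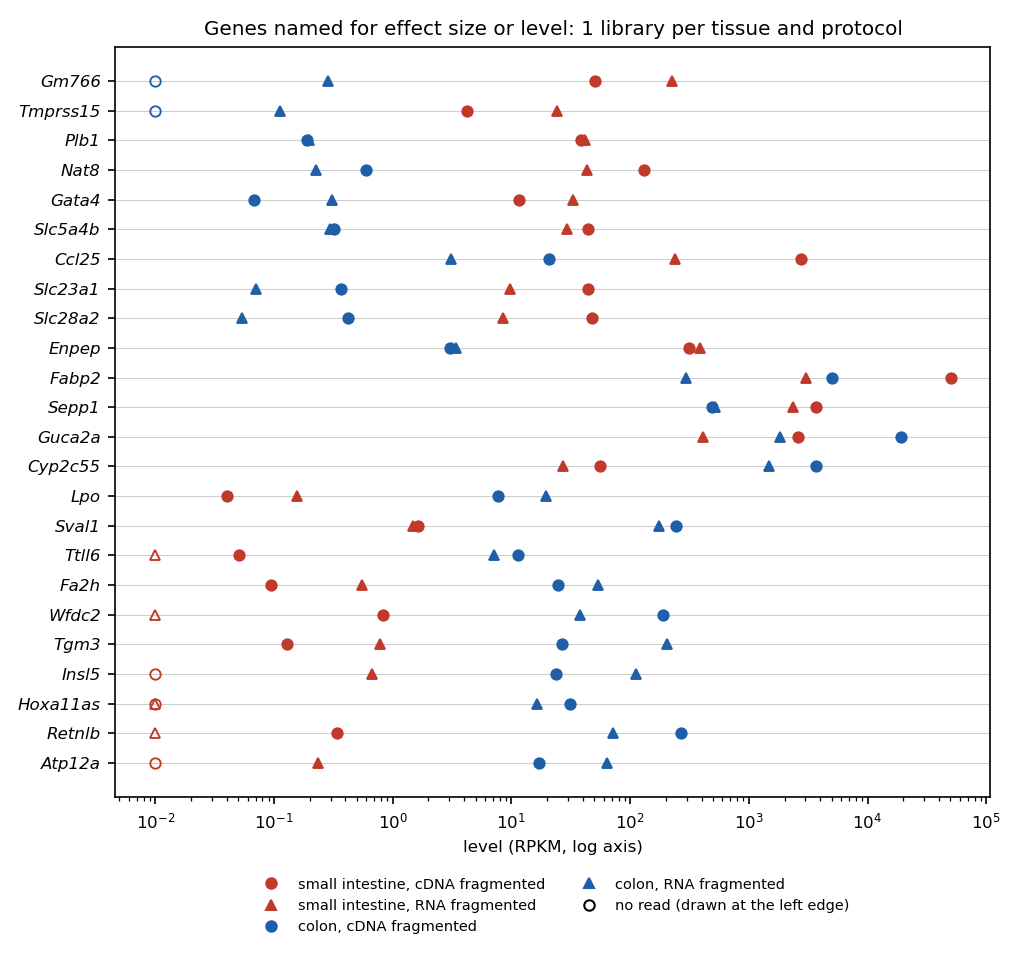
Level (RPKM, log axis) of the genes of like size with the largest effects in each direction, and of 4 genes of like size with high levels (Fabp2, Sepp1, Guca2a, Cyp2c55), in the 4 libraries. Circles are cDNA-fragmented, triangles RNA-fragmented, red small intestine, blue colon, and open symbols mark no read. For each gene both symbols of one tissue lie on the same side of both symbols of the other, except for Guca2a and Fabp2, whose tissues overlap across the protocols but not within either of them.

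Among called genes of like size higher in small intestine, those with the highest mean level over the 4 libraries were Fabp2, Crip1, Plac8, B2m and Sepp1. Fabp2 (chr3:122598310-122602424), the intestinal fatty acid binding protein, stood at 50205, 5049, 3048 and 296 RPKM, and its ratios of -3.31 and -3.36 gave a fold of 10.1 (log2 difference -3.34 ± 0.35, adjusted p = 3.2e-08). Sepp1, the plasma selenium carrier selenoprotein P, stood at 3677, 492, 2362 and 521 RPKM (log2 difference -2.54 ± 0.35, adjusted p = 3.7e-06), and B2m, the light chain of MHC class I, at 4574, 1138, 1279 and 441 RPKM (log2 difference -1.77 ± 0.35, adjusted p = 4.7e-04). Crip1 and Plac8 had smaller differences of -1.72 and -1.41. The difference of Crip1 was 0.94 without the RNA-fragmented colon library. That fit held no protocol term, so it set libraries of different protocols against each other. Within the pairs the ratios of Crip1 were -1.29 and -2.19.

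Among those higher in colon, the highest mean levels over the 4 libraries were those of 2210415F13Rik, Guca2a, an unnamed exon block on chromosome 10, Cyp2c55 and Krt19. The difference of the unnamed block (unnamed_chr10_127986144) changed sign without the cDNA-fragmented colon library (-0.54) or the RNA-fragmented small intestine library (-0.87). These fits, too, held no protocol term, and within the pairs the ratios of the block were 1.23 and 0.87. Cyp2c55 (chr19:39081509-39117177), a cytochrome P450 of the colon, stood at 56.3, 3710.3, 27.4 and 1489 RPKM, a fold of 60.7 (log2 difference 5.92 ± 0.37, adjusted p = 3.4e-12). Krt19, a keratin of simple epithelia, stood at 359, 1017, 748 and 1792 RPKM (log2 difference 1.38 ± 0.34, adjusted p = 0.0054), and 2210415F13Rik at 5124, 18846, 982 and 4641 RPKM (log2 difference 2.06 ± 0.34, adjusted p = 6.5e-05). When start points (distinct read positions) were counted in place of reads, the log2 differences of 2210415F13Rik, Guca2a and Krt19 were -0.21, -0.05 and -0.17. A gene can hold at most 1 start point per exonic base and strand. In the cDNA pair the small intestine and colon had 1782 and 1802 start points of at most 2216 for 2210415F13Rik, 915 and 928 of at most 1120 for Guca2a, and 1855 and 2191 of at most 2746 for Krt19. In the RNA pair, further below this ceiling, the start points were 353 and 679 for 2210415F13Rik, 97 and 255 for Guca2a, and 379 and 618 for Krt19, before scaling to the library. The direction of these genes thus depended on whether reads or start points were counted, and the cause was not tested. Crip1, Plac8, and further below Plin2, Slc26a3, Gcg and Myl9 kept their direction but were not called with start points.

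Guanylin (Guca2a) and uroguanylin (Guca2b) are short secreted peptides that bind the guanylate cyclase receptor Gucy2c on enterocytes and drive fluid secretion. These neighbouring genes of chromosome 4 had opposite tissue effects, each of like size in both protocols. Guca2a (chr4:119310337-119312070) stood at 2607, 19297, 409 and 1826 RPKM and was higher in colon (log2 difference 2.54 ± 0.36, adjusted p = 5.4e-06), with pair ratios of 2.89 and 2.16. Guca2b (chr4:119329208-119331550) stood at 5572, 88.6, 1049 and 17.9 RPKM and was higher in small intestine (log2 difference -5.93 ± 0.39, adjusted p = 7.9e-12), with pair ratios of -5.97 and -5.85. The receptor Gucy2c stood at 167, 92.1, 100.4 and 67.7 RPKM and did not pass the test (adjusted p = 0.18). Their promoters are shown because the genes lie side by side and moved in opposite directions, and promoters of 2 further genes from each tissue stand beside them. The sequences were taken from RefSeq (GRCm38.p6), run 5′ to 3′ on the strand of the gene and cover 250 bases before to 50 after the start. Capitals mark matches on either strand to letters that a script searched for. The letters AGATAA stand for the Gata family of zinc finger factors. The letters TTTATG stand for the caudal factors Cdx1 and Cdx2. The letters GTTAAT stand for a half-site of Hnf1 factors. The letters CAAAGTCCA stand for Hnf4 factors. The letters TATAAA stand for the TATA box.
Guca2a (chr4:119637482-119637781, plus strand): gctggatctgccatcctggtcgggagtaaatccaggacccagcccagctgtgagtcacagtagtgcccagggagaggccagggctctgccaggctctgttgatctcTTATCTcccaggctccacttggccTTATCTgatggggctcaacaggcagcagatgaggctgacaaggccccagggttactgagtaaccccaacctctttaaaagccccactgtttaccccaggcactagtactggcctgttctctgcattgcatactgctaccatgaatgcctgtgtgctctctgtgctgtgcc
Guca2b (chr4:119658896-119659195, minus strand): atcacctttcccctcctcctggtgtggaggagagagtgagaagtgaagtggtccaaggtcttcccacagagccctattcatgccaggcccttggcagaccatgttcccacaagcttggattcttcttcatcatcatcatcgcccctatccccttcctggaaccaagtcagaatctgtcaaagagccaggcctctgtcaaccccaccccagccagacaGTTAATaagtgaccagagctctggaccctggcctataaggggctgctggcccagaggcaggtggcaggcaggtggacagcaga
Tmprss15 (chr16:79091048-79091347, minus strand): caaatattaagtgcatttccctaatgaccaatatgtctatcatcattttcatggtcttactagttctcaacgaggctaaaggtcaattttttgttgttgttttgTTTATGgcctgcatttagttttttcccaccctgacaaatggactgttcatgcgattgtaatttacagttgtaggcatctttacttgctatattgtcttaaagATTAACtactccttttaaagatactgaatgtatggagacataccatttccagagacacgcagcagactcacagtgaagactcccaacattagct
Slc28a2 (chr2:122426185-122426484, plus strand): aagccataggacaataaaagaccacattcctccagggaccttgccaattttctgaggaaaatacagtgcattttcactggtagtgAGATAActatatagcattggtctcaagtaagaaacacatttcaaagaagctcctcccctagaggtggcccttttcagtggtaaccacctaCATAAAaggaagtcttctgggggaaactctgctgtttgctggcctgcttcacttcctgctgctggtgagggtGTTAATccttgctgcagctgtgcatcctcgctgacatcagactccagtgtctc
Insl5 (chr4:103027222-103027521, minus strand): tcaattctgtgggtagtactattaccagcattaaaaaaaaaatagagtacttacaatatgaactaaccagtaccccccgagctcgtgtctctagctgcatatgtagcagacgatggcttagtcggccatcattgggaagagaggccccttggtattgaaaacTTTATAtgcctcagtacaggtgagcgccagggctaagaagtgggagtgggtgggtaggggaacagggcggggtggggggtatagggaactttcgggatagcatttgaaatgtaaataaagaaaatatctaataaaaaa
Cyp2c55 (chr19:39006769-39007068, plus strand): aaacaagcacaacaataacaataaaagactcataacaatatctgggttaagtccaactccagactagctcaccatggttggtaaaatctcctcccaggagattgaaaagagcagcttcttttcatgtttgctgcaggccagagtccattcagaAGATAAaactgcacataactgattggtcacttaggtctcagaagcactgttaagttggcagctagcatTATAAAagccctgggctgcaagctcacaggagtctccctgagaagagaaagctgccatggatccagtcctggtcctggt

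The promoter of Guca2a held 2 matches to the Gata letters and that of Guca2b 1 match to the Hnf1 half-site, so that no motif was found in both. Tmprss15 and Slc28a2, higher in small intestine, each held a caudal and an Hnf1 match, and Insl5 and Cyp2c55, higher in colon, each held a match to the TATA letters, which lay on the strand of the gene in Cyp2c55 and on the other strand in Insl5. Slc28a2 and Cyp2c55, of opposite direction, also each held a match to the Gata letters. A promoter was found for 9592 of 13536 tested genes. Of these promoters 6.88% held AGATAA on either strand, beside 12.4% of the 427 promoters of called genes of like size higher in small intestine and 7.45% of the 443 of those higher in colon. CAAAGTCCA was in 0.48% of all, 1.64% of the first group and 0.68% of the second, that is in 46, 7 and 3 promoters. TTTATG was in 6.72%, 8.9% and 6.55%, GTTAAT in 4.61%, 5.39% and 4.74%, and TATAAA in 7.99%, 11% and 9.71%. A match is a description of letters and not a site that was shown to be bound.

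Of 20 tested genes of lipid absorption and chylomicron assembly, 17 were called with more RNA in small intestine and 1 with more in colon, with a median log2 difference of -5.63 (cDNA pair -5.93, RNA pair -5.26). Like size held for 9 of the 18 called. Mogat2, which rebuilds triglyceride from absorbed monoglyceride, stood at 732, 10.9, 295 and 4.53 RPKM, and its pair ratios of -6.06 and -5.99 were of like size (log2 difference -6.05 ± 0.41, adjusted p = 1.0e-11). Apob, the structural protein of chylomicrons, stood at 102, 2.17, 922 and 16.1 RPKM (log2 difference -5.70 ± 0.35, adjusted p = 2.5e-12), with ratios of -5.55 and -5.84. For Apoa4, another chylomicron protein, the direction was shared but the size was not: levels were 1339, 0.248, 3454 and 39.8 RPKM and the ratios -11.89 and -6.44. Plin2, which coats lipid droplets, was the member higher in colon, at 91.9, 225, 32.8 and 77.3 RPKM (log2 difference 1.27 ± 0.37, adjusted p = 0.019).

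The fatty acid binding proteins of the gut shared the direction but differed in how far the pairs matched. Fabp1, the liver form, stood at 17814, 5.40, 564 and 3.86 RPKM with ratios of -11.59 and -7.06, so that the direction was shared and the size was not. Fabp6, the ileal bile acid binding protein, stood at 1572, 36.8, 292 and 3.82 RPKM with ratios of -5.40 and -6.10 (log2 difference -5.58 ± 0.46, adjusted p = 5.8e-10). Among 8 tested genes of bile acid handling, small intestine was higher for 5 and colon for 1, and Fgf15 was the only called member not of like size. Abcc2, an efflux pump of the apical membrane, was higher in small intestine (log2 difference -6.50 ± 0.50, adjusted p = 1.5e-10), and Abcc3, a pump of the basolateral membrane, was higher in colon, at 6.00, 28.3, 16.2 and 58.0 RPKM (log2 difference 2.06 ± 0.38, adjusted p = 2.0e-04). The apical bile acid uptake carrier Slc10a2 stood at 17.6, 33.0, 46.2 and 74.6 RPKM and did not pass the test (adjusted p = 0.17).

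Of 11 tested genes of sugar digestion and metabolism, 10 were called higher in small intestine, with a median log2 difference of -4.59 (cDNA pair -4.90, RNA pair -4.83). Like size held for 5 of the 10 called. Slc5a1, the sodium-glucose cotransporter SGLT1, stood at 1615, 54.2, 1052 and 55.2 RPKM with ratios of -4.90 and -4.25 (log2 difference -4.58 ± 0.35, adjusted p = 1.4e-10). Slc2a5, the fructose transporter, and Khk, which phosphorylates fructose, were lower in colon by like amounts in both pairs (log2 differences -4.59 and -4.25). The disaccharidases Sis, which splits sucrose, and Lct, which splits lactose, had larger ratios by cDNA than by RNA fragmentation, namely -8.77 and -6.77 for Sis and -11.16 and -7.24 for Lct. Pck1, a gluconeogenic enzyme, was the member not called, at 122, 82.6, 73.4 and 67.0 RPKM (adjusted p = 0.57).

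Peptide digestion followed the same direction, with 17 of 18 tested genes higher in small intestine and a median of -4.84 (cDNA pair -5.44, RNA pair -4.82). Among them 9 were of like size, such as the angiotensin-converting enzyme Ace, at 20.7, 0.677, 333 and 17.2 RPKM (log2 difference -4.55 ± 0.39, adjusted p = 1.2e-09), and the cystine transporter subunits Slc7a9 and Slc3a1, with differences of -6.27 and -3.51. Slc6a19, an apical transporter of neutral amino acids, stood at 201, 0.470, 248 and 1.90 RPKM and was not of like size, with ratios of -8.54 and -6.97. The astacin proteases Mep1a and Mep1b are subunits of meprin that differed in their pattern: Mep1b was higher in small intestine (log2 difference -3.31 ± 0.36, adjusted p = 6.7e-08), while Mep1a stood at 148, 167, 94.4 and 153 RPKM and did not pass the test (adjusted p = 0.48).

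Vitamin and mineral genes were less uniform, with 9 of 19 tested higher in small intestine, 2 (Slc40a1 and S100g) in the other direction and a median of -1.16 (cDNA pair -1.23, RNA pair -1.34). S100g had ratios of 3.50 and -1.44, opposite in sign, and Slc40a1 ratios of 2.14 and 0.79. The difference of each changed sign when 1 library was left out, in a fit without the protocol term. Rbp2, the retinol binding protein of enterocytes, stood at 5601, 96.1, 1005 and 20.4 RPKM (log2 difference -5.77 ± 0.39, adjusted p = 1.0e-11). Cubn and Amn, the 2 parts of the receptor for the vitamin B12 carrier, were both higher in small intestine (log2 differences -5.84 and -4.05), as was the folate transporter Slc46a1 (-2.97). The vitamin D receptor Vdr stood at 37.9, 50.1, 173 and 147 RPKM and did not pass the test (adjusted p = 0.91).

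**Figure D5:**
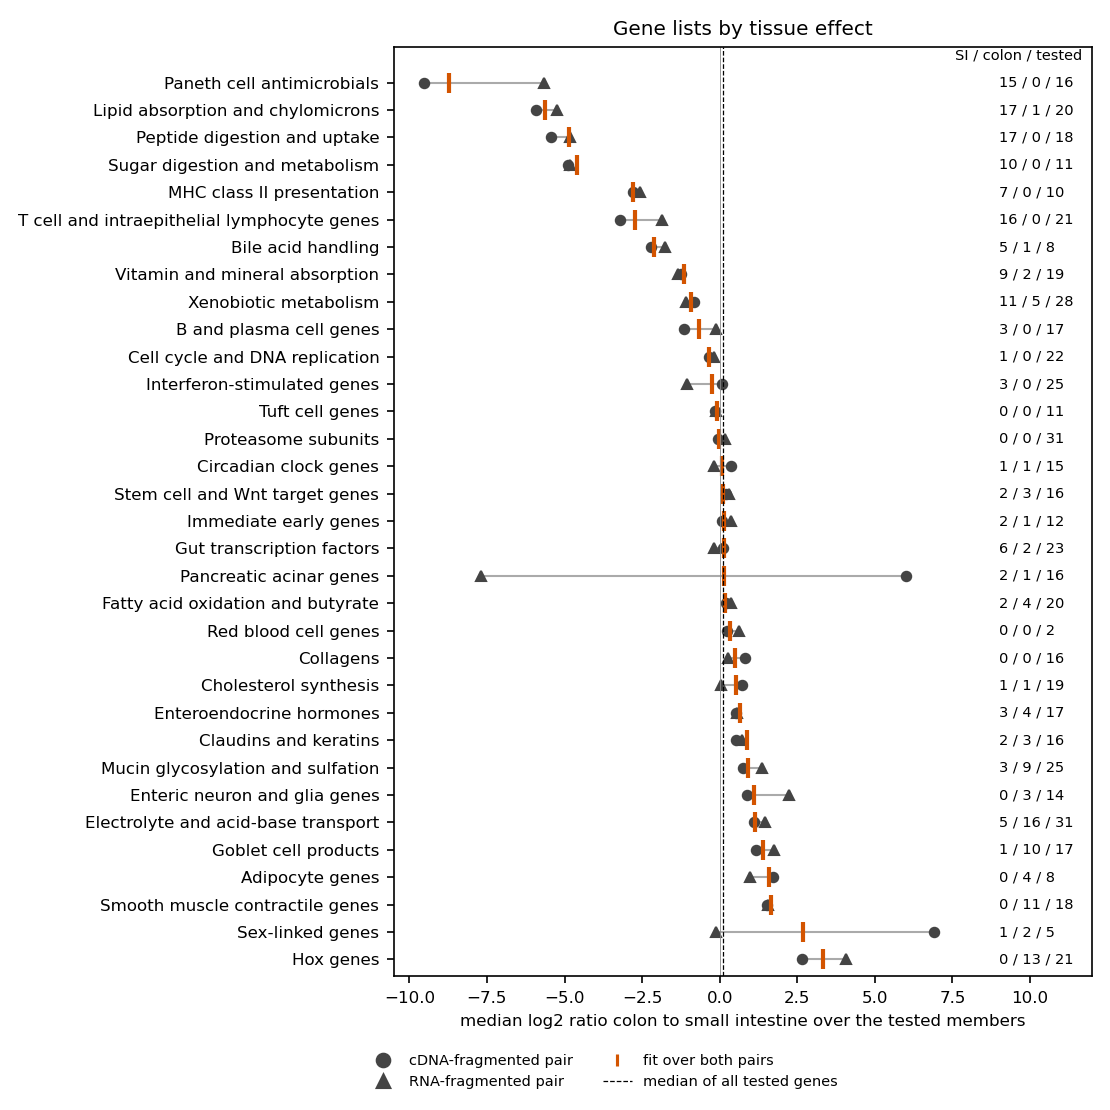
Median of the log2 ratios (colon to small intestine) over the tested members of each gene list, in the cDNA-fragmented pair (circle), the RNA-fragmented pair (triangle) and the fit over both (orange bar), with the numbers called higher in small intestine, called higher in colon and tested on the right. By the orange bars the Paneth cell, lipid, peptide and sugar lists lie furthest to the left and the Hox list furthest to the right, and the circle and triangle of the acinar list lie on opposite sides of 0.

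Paneth cell antimicrobials had the lowest list median, -8.71 (cDNA pair -9.53, RNA pair -5.67), and 15 of 16 tested were higher in small intestine. Only 1 of the 15, Reg3a, was of like size. Lyz1, the Paneth cell lysozyme, stood at 7892, 45.0, 1585 and 34.1 RPKM with ratios of -7.45 and -5.53 (log2 difference -6.62 ± 0.41, adjusted p = 2.6e-12). The α-defensin Defa24, with 245972, 70, 626 and 1 reads, had ratios of -12.07 and -9.55 and the largest fold towards small intestine of all genes (3469.6). The α-defensin genes are near-identical copies, and the files hold only reads with a single best place, so their single values are uncertain. Ang4, an antimicrobial ribonuclease, was the member not called: the cDNA levels were 1714 and 504 RPKM and the RNA levels 223 and 214 RPKM (adjusted p = 0.095).

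Of 21 tested genes of T cells and intraepithelial lymphocytes, 16 were called higher in small intestine, with a median of -2.72 (cDNA pair -3.20, RNA pair -1.86), and 7 of the 16 were of like size. Gzma, a granule protease of cytotoxic cells, stood at 476, 4.44, 63.1 and 2.16 RPKM (log2 difference -6.28 ± 0.52, adjusted p = 6.1e-10), and Ccl5, a T cell chemokine, at 801, 31.9, 52.2 and 3.18 RPKM with ratios of -4.63 and -3.90 (log2 difference -4.51 ± 0.46, adjusted p = 2.3e-08). Gzma was not of like size. The RNA pair held few reads for this list, for example 6 and 0 for the T cell receptor chain Cd3g, which had 965 and 120 in the cDNA pair. Cd4 was not called, at 4.10, 1.66, 2.68 and 2.39 RPKM (adjusted p = 0.24).

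Of 10 tested MHC class II genes, 7 were higher in small intestine, 6 of them of like size, with a median of -2.78 (cDNA pair -2.79, RNA pair -2.58). H2-Ab1, a class II β chain, stood at 381, 42.9, 513 and 76.2 RPKM with ratios of -3.15 and -2.75 (log2 difference -2.96 ± 0.36, adjusted p = 4.5e-07), and Ciita, the activator of class II transcription, had a difference of -2.41. H2-Oa and H2-Ob, the chains of the regulator H2-O of B cells, were not called (adjusted p = 0.76 and 0.69). B and plasma cell genes had 3 of 17 higher in small intestine and a median of -0.67 (cDNA pair -1.14, RNA pair -0.12). Among them Igj, the joining chain of secreted antibodies, stood at 4423, 389, 326 and 264 RPKM, with near levels in the RNA pair (log2 difference -1.93 ± 0.46, adjusted p = 0.0038). Interferon-stimulated genes had 3 of 25 higher in small intestine, among them Ddx58 and Igtp, and a median of -0.24 (cDNA pair 0.07, RNA pair -1.05), which was 0.01 when libraries were scaled by totals alone.

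Of 31 tested genes of electrolyte and acid-base transport, colon was higher for 16 and small intestine for 5, with a median of 1.13 (cDNA pair 1.11, RNA pair 1.45), and 12 of the 21 called were of like size. Slc26a3, the chloride-bicarbonate exchanger of the apical membrane, stood at 145, 830.0, 39.3 and 249.6 RPKM with ratios of 2.51 and 2.66 (log2 difference 2.58 ± 0.36, adjusted p = 4.4e-06). Its relative Slc26a6 had the opposite direction, at 226, 1.18, 177 and 2.82 RPKM (log2 difference -6.91 ± 0.47, adjusted p = 1.3e-11), and was not of like size, with ratios of -7.51 and -5.94. The subunits of the epithelial sodium channel were all higher in colon, with 31, 155, 24 and 374 reads for Scnn1a, 0, 204, 0 and 93 reads for Scnn1b and 1, 183, 0 and 25 reads for Scnn1g. Scnn1b was thus at least 52.8-fold higher in the cDNA pair and at least 14.2-fold in the RNA pair.

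Aldosterone acts through the receptor Nr3c2, which the enzyme Hsd11b2 shields from glucocorticoids. Both were higher in colon: Hsd11b2 stood at 1.60, 57.1, 4.99 and 68.5 RPKM (log2 difference 4.64 ± 0.51, adjusted p = 8.9e-08) and Nr3c2 at 5.0, 8.90, 19.1 and 52.3 RPKM (log2 difference 1.13 ± 0.39, adjusted p = 0.047). Hsd11b2 was not of like size. Sgk1, a kinase downstream of the receptor, went the other way, at 115, 61.2, 85.7 and 17.9 RPKM (log2 difference -1.53 ± 0.38, adjusted p = 0.0051). The chloride channels Ano1 and Best2 were higher in colon, with a log2 difference of 3.82 for Ano1 and 0, 178, 0 and 119 reads for Best2, while the channel Cftr stood at 16.5, 16.5, 30.6 and 20.3 RPKM and did not pass the test (adjusted p = 0.69). Among carbonic anhydrases, which make bicarbonate, Car4 was of like size, at 375, 1869.6, 35.6 and 326 RPKM (log2 difference 2.68 ± 0.38, adjusted p = 5.9e-06), although with start points in place of reads it was not called. Car1 had 0, 1619874, 68 and 25678 reads, with a cDNA ratio of at least 419629.9-fold and an RNA ratio of 172-fold. The water channel Aqp8 had 3, 39252, 5 and 1916 reads (log2 difference 11.20 ± 0.92, adjusted p = 4.3e-10).

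Goblet cell products lay towards colon, with 10 of 17 tested higher in colon, 1 higher in small intestine and a median of 1.40 (cDNA pair 1.16, RNA pair 1.76). Of the transcription factors that set the goblet cell fate, Atoh1 stood at 3.73, 12.2, 8.61 and 29.3 RPKM (log2 difference 1.73 ± 0.44, adjusted p = 0.0071) and Spdef at 2.62, 15.9, 8.61 and 64.9 RPKM (log2 difference 2.72 ± 0.46, adjusted p = 7.1e-05), each of like size. Clca3, a secreted mucus protein, stood at 531, 1183, 417 and 3301 RPKM (log2 difference 2.07 ± 0.39, adjusted p = 2.6e-04) and was not of like size. The trefoil peptide Tff3 stood at 2432, 2720.0, 1026 and 946 RPKM and the lectin Zg16 at 7984, 11184, 1855 and 1454 RPKM, and neither passed the test (adjusted p = 0.97 and 0.93).

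Enzymes that build and sulfate mucin sugars had 9 of 25 higher in colon, 3 higher in small intestine and a median of 0.90 (cDNA pair 0.74, RNA pair 1.38). Like size held for 6 of the 12 called. B3gnt7, which extends the sugar chains, stood at 7.62, 86.6, 13.7 and 300.5 RPKM with ratios of 3.49 and 4.45 (log2 difference 3.92 ± 0.40, adjusted p = 2.5e-08), and Gcnt3, which adds branches, at 55.2, 207, 21.1 and 85.6 RPKM with ratios of 1.91 and 2.02 (log2 difference 1.96 ± 0.36, adjusted p = 2.3e-04). Fut2, the fucosyltransferase of the secretor trait, had 46, 2034, 3 and 908 reads (log2 difference 5.60 ± 0.60, adjusted p = 5.6e-08). St3gal4, a sialyltransferase, had the opposite direction, at 3002, 234, 263 and 28.2 RPKM (log2 difference -3.47 ± 0.36, adjusted p = 3.2e-08).

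Hox genes are transcription factors of the body axis. Of 37 Hox genes, 16 had fewer than 50 reads and were not tested, and 13 of the 21 tested were higher in colon. Several of these passed the read minimum through colon alone, so neither this count nor the median of 3.32 (cDNA pair 2.65, RNA pair 4.06) stands for the Hox genes as a whole. The posterior members were near 0 in small intestine: Hoxd13 had 0, 137, 1 and 160 reads, Hoxa9 1, 263, 0 and 45 reads and Hoxb9 21, 1053, 9 and 463 reads, each of like size (log2 differences 6.66, 6.26 and 4.96). Hoxb13, the most posterior gene of its cluster, had 1, 1498, 0 and 86 reads (log2 difference 8.08 ± 0.96, adjusted p = 3.6e-07). Of the anterior members, Hoxb1 had 55, 57, 2 and 1 reads and did not pass the test (adjusted p = 0.68).

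Among 23 other gut transcription factors tested, small intestine was higher for 6 and colon for 2, and 6 of the 8 were of like size. The GATA factors formed a series, with log2 differences of -6.97 ± 0.75 for Gata4, -4.62 ± 0.54 for Gata5 and -1.46 ± 0.40 for Gata6, each higher in small intestine (adjusted p = 5.8e-08, 2.6e-07 and 0.012). The caudal factors differed: Cdx1 was higher in colon with ratios of 1.82 and 1.95 (log2 difference 1.88 ± 0.37, adjusted p = 4.8e-04), while for Cdx2 the ratios were 1.65 and -1.36 and opposite in sign (adjusted p = 0.73). Hnf4g was higher in small intestine, at 385, 9.85, 150.2 and 17.0 RPKM (log2 difference -4.30 ± 0.42, adjusted p = 8.6e-09), and its relative Hnf4a stood at 118, 126, 238 and 221 RPKM and did not pass the test. Hnf4g was not of like size, with ratios of -5.28 and -3.14.

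Genes of xenobiotic metabolism went in both directions, with small intestine higher for 11 of 28 tested and colon for 5. Cyp3a13, a cytochrome P450 of the gut, stood at 1019, 142, 371 and 37.9 RPKM with ratios of -2.84 and -3.29 (log2 difference -3.06 ± 0.35, adjusted p = 2.0e-07). Within the Cyp2c group the members parted: Cyp2c55 was higher in colon as above, Cyp2c66 higher in small intestine (log2 difference -2.94 ± 0.61, adjusted p = 8.5e-04), and Cyp2c65 stood at 60.9, 64.6, 43.3 and 44.3 RPKM (adjusted p = 0.94). Of 99 genes of the whole P450 family 42 were tested, and small intestine was higher for 15 and colon for 8. The latter included Cyp2d9, Cyp2d10, Cyp2d12 and Cyp2d34 with log2 differences of 5.74, 6.32, 6.42 and 7.91, while Cyp2d26 was higher in small intestine (-2.36). Several of those higher in colon, such as Cyp2d9 with 1, 293, 0 and 15 reads, passed the read minimum through colon alone. The counts therefore do not stand for the family as a whole. Cyp2d genes are close copies of each other, so their single values are uncertain. Sult1c2, a sulfotransferase, was higher in colon with ratios of 4.76 and 5.29 (log2 difference 4.88 ± 0.54, adjusted p = 1.1e-07), and Aldo-keto reductases had 7 of 13 higher in colon and 1 lower. Like size held for 4 of these 8, and Akr1c21, called higher in colon, had ratios of 4.34 and -0.61, opposite in sign.

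Of 354 solute carriers 254 were tested. Small intestine was higher for 61 (24.0%) and colon for 40 (15.7%), beside 7.61% and 7.42% of all genes, and 60 of the called members were of like size. Some, such as Slc2a7 with 1112, 5, 36 and 0 reads, passed the read minimum through 1 tissue alone, so these shares are of the tested members only. On the side of colon, Slc6a14, an amino acid transporter, had the largest difference (6.60), at 1.69, 190.2, 3.90 and 303 RPKM. Slc2a1, the glucose transporter GLUT1, was also higher in colon, at 2.66, 23.5, 2.15 and 18.8 RPKM (log2 difference 3.12 ± 0.48, adjusted p = 2.2e-05), whereas Slc2a2, Slc2a5 and Slc2a7 of the same family were higher in small intestine (log2 differences -9.40, -4.59 and -7.78). Slc16a1, a carrier of butyrate and other monocarboxylates, stood at 12.4, 33.0, 30.6 and 108 RPKM (log2 difference 1.61 ± 0.36, adjusted p = 0.0021). Ribosomal protein genes had 3 of 42 called by limma-voom, all higher in colon, with a median of 0.65 (cDNA pair 0.74, RNA pair 0.57). Respiratory complex I genes had 0 of 41 called with a median of 0.37, and proteasome subunits 0 of 31 with a median of -0.0089. At an unadjusted p below 0.05 the proteasome list had 0 members and complex I had 3, and limma-trend called 1 proteasome subunit and no complex I gene.

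Genes of fatty acid oxidation and butyrate use had 4 of 20 higher in colon and 2 lower, with a median of 0.17 (cDNA pair 0.20, RNA pair 0.37). Acads, which oxidises short-chain acyl groups, was of like size (log2 difference 1.83 ± 0.41, adjusted p = 0.0018), while Acadm, which acts on medium chains, stood at 202, 208, 33.3 and 42.9 RPKM (adjusted p = 0.82). Cholesterol synthesis genes had 1 of 19 called in each direction.

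Of 17 tested hormone genes of enteroendocrine cells, colon was higher for 4 and small intestine for 3, and 5 of the 7 were of like size. Pyy, the ileocolonic satiety hormone, stood at 23.6, 199.6, 7.42 and 64.9 RPKM with ratios of 3.06 and 3.07 (log2 difference 3.07 ± 0.47, adjusted p = 2.0e-05), and Gcg, the precursor of GLP-1, at 105, 234, 15.2 and 74.7 RPKM (log2 difference 1.53 ± 0.41, adjusted p = 0.0096). Gcg was not of like size. Gip, the hormone of proximal K cells, had 1238, 0, 18 and 0 reads and was at least 531-fold higher in small intestine in the cDNA pair and at least 13.1-fold in the RNA pair. Cck and Ghrl, released by the upper gut, had differences of -2.16 and -4.96. Sst, which encodes somatostatin, was not called, at 51.2, 50.7, 20.8 and 24.7 RPKM (adjusted p = 0.96).

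Genes of stem cells and Wnt signalling had 3 of 16 higher in colon and 2 lower. Olfm4, a marker of small intestinal stem cells in the mouse, stood at 525, 0.335, 213 and 1.54 RPKM (log2 difference -9.29 ± 0.68, adjusted p = 5.1e-11), whereas the stem cell receptor Lgr5 stood at 2.15, 1.37, 2.16 and 1.03 RPKM and did not pass the test (adjusted p = 0.36). Olfm4 was not of like size. The receptors Ephb2 and Ephb3, which sort cells along the crypt, were higher in colon and of like size (log2 differences 1.80 and 1.92). Of 22 cell cycle genes, Top2a alone was called (log2 difference -1.56 ± 0.38, adjusted p = 0.0043), and of 11 tuft cell genes limma-voom called 0, with 1 at an unadjusted p below 0.05 and 1 called by limma-trend.

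Tight junction and keratin genes had 3 of 16 higher in colon and 2 lower. Cldn8, a claudin that seals the distal gut, stood at 1.48, 42.4, 1.57 and 28.6 RPKM with ratios of 4.78 and 4.13 (log2 difference 4.63 ± 0.53, adjusted p = 1.5e-07), and Cldn23 had ratios of 1.51 and 1.52. Cldn15, which forms sodium pores, was higher in small intestine with ratios of -1.24 and -1.38 (log2 difference -1.30 ± 0.35, adjusted p = 0.01), and was not called with libraries scaled by totals alone.

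Of 18 tested smooth muscle genes, 11 were higher in colon, with a median of 1.66 (cDNA pair 1.52, RNA pair 1.55), and 5 of the 11 were of like size. Myl9, a myosin light chain, stood at 160.3, 460.0, 47.7 and 188 RPKM (log2 difference 1.71 ± 0.37, adjusted p = 0.0016), and Cnn1, a calponin of smooth muscle, at 22.1, 90.5, 16.0 and 252 RPKM (log2 difference 2.85 ± 0.42, adjusted p = 1.3e-05). Cnn1 was not of like size. Enteric neuron and glia genes had 3 of 14 higher in colon, adipocyte genes 4 of 8 and collagens 0 of 16 by limma-voom, with 5 collagens at an unadjusted p below 0.05 and 0 called by limma-trend. Adipoq and Cfd, which fat cells secrete, were of like size (log2 differences 1.88 and 3.10). The part of the muscle and fat content of the samples in the other results was not tested.

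Among the 26 called genes without a shared sign, Snord66 and an unnamed exon block on chromosome 17 had no read in the cDNA pair, and Hemt1, Ang2 and Pbp2 had none in the RNA pair. The others included leukocyte genes, such as Cd53 with 2123, 497, 22 and 67 reads and Slamf7 with 450, 116, 13 and 32 reads, and genes with few reads in the RNA pair, such as Zic1 with 45, 374, 4 and 3 reads. Both leukocyte genes were higher in small intestine in the cDNA pair and slightly higher in colon in the RNA pair. The Y-linked Ddx3y and Ube1y1 were among the 26, with 19, 992, 85 and 170 reads and 1, 377, 21 and 12 reads.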

How the data were processed

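RNA of 2 tissues was sequenced by 2 protocols on the SOLiD system, 1 library each. The authors had cut the color-space reads to 35 colors, matched them with at most 3 mismatches to RefSeq exons and exon junctions of mm9, and deposited each uniquely placed read with its position, so the deposited values are placements and hold no table of counts. Their report files give total reads of 77504263 and 83302412 for the cDNA-fragmented and 36419942 and 37466674 for the RNA-fragmented small intestine and colon. Of these 22484041, 24798934, 2035386 and 3478387 were uniquely placed, that is 29.0%, 29.8%, 5.59% and 9.28%. The totals of the cDNA-fragmented libraries are those that the study reports. Its totals for RNA-fragmented libraries are far larger than those given here, so these files do not hold the full read set behind them.

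Reads on merged exon blocks were counted per gene without regard to strand, and junction reads were left out. Reads were assigned to blocks with a tolerance of 3 bases at exon borders, and blocks were named by their overlap with GENCODE exons (mm9). This gave 20941 genes, of which 20765 had a name and 1651 shared exonic bases with another gene. Counts were analysed with limma (version 3.58.1, voom) in R 4.3.3, with protocol and tissue as terms and TMM factors that trimmed 30% of ratios and 5% of levels. The factors were 0.76, 0.89, 1.08 and 1.38, and 1 residual degree of freedom was left per gene. The edgeR test written into the design was not used here, and limma-voom took its place. Within-protocol log2 ratios used a prior count of 2. A bound against 0 reads used a floor of 3 reads per library, and such bounds cover counting error only. The script was tested on simulated data with known changes. The tissue by protocol interaction leaves no residual degree of freedom and was not tested.

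The genes, lists and comparisons were chosen with earlier results of these data known. Named by rule were, per direction, the 10 called genes of like size with the largest effect and 50 or more reads in each pair, the 5 with the highest level, up to 4 members of each list with the highest level and those against its median, the 5 with the largest gap between pairs of opposite sign in each combination, and the markers (204 genes). A few genes that the rule names are not reported here. Further members named above, such as Ace, Apob, Atoh1, Ccr9, Cdx2, Hsd11b2 and Cldn8, were chosen after their values were seen. Alternatives changed the scaling, the read minimum, the mismatches, the counted unit, the depth, the block, shared exons and the libraries used. Figures were drawn with matplotlib 3.10.9.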

Additional observations from a re-analysis of the deposited data

Results flagged for a closer look

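Of 9596 genes with 50 or more reads in each pair, 3107 had opposite signs in the 2 pairs, and these were ranked by the gap between the log2 ratios (RNA-fragmented minus cDNA-fragmented). With 1 library per tissue and protocol, none of these differences was tested. The 5 largest gaps with the colon higher in the cDNA pair and the small intestine higher in the RNA pair were all pancreatic acinar genes, namely the elastase Cela2a (-18.84), the lipase Pnlip (-18.50), the chymotrypsinogen Ctrb1 (-17.08), the carboxypeptidase Cpa1 (-16.72) and the trypsinogen Prss2 (-15.85). The 4 libraries held 0, 2229, 1110 and 3 reads of Pnlip and 3, 1773, 1595 and 5 reads of Ctrb1, in the order small intestine and colon of the cDNA pair and then of the RNA pair. In the opposite combination the gaps were smaller: 3.98 for the phospholipase Pla2g5, 3.60 for the RNA sensor Tlr7, 3.59 for Zfp758, 3.35 for the guanylate cyclase subunit Gucy1b3 and 3.16 for the calcineurin subunit Ppp3cc. Pla2g5 had 417, 319, 5 and 110 reads and Tlr7 90, 23, 7 and 43 reads. None of these 10 genes was called.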

How the results depend on the processing

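The counts of genes called higher in colon, called higher in small intestine and called with like size (1004, 1030 and 1265) kept within 1.5 times under 7 alternatives, namely median-of-ratios scaling, a minimum of 200 reads, start points, at most 1 mismatch, shared exonic bases left out, limma-trend and the libraries without Lars2, the last 2 of which were chosen after seeing the data. The same held with no read minimum (702, 757 and 924) and with every library thinned to the shallowest (689, 778 and 894). With libraries scaled by totals only, 1626 genes were called higher in colon and 783 in small intestine, and the list medians of interferon-stimulated, proteasome and tuft cell genes turned positive. Without the protocol block the 3 counts were 0, 0 and 0 by limma, with 760 genes at an unadjusted p below 0.05, so the block changed every call. Leaving out 1 library, with tissue as the only term and the lone library of a tissue assumed to vary like the others, gave 8 to 49 genes higher in colon and 37 to 104 higher in small intestine, the fewest calls for colon being without the cDNA-fragmented small intestine library, and like size could not be computed. A limit of 0.5 for like size gave 712 genes and a limit of 2 gave 1786. The DESeq2 alternative was not run, and limma-voom, listed as an alternative, became the main test.

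Across 10 alternatives other than leaving out a library or the protocol block, 1848 of 2019 values of named genes kept their direction and call, 75 lost the call, 20 gained it, 72 moved and 4 reversed. Without the block all 126 called genes among the 204 named lost the call. Those 4 arose with start points, as log2 differences of -0.21 for 2210415F13Rik, -0.053 for Guca2a, -0.36 for the unnamed exon block on chromosome 10 (unnamed_chr10_127986144) and -0.17 for Krt19. The unnamed block had 584 and 599 start points of at most 898 in the cDNA pair and 105 and 148 in the RNA pair. With 1 library left out, 307 of 809 values kept their direction and call and 14 reversed. The log2 differences then ranged from -0.87 to 3.19 for unnamed_chr10_127986144, -3.92 to 0.94 for Crip1, -0.058 to 2.98 for Slc40a1, -0.49 to 2.78 for S100g, -3.12 to 0.78 for Aqp1, -0.16 to 5.47 for Agr2, -3.81 to 0.87 for Sc5d, -3.47 to 0.019 for Axin2, -3.63 to 3.37 for 2010001M09Rik and -4.79 to 0.60 for Krt20. These fits held no protocol term, so the lone library of a tissue was set against libraries of both protocols. The level of a gene by protocol thus enters its difference, and the cause of these changes was not tested. The tallies of values above are of named genes only. Of 35 list medians, 18 moved with start points and 17 with libraries scaled by totals only. With 1 library left out, 21 to 26 of the 35 moved, depending on the library. Under each other alternative, the fit without the block included, 1 to 8 moved. The rest of the 35 stayed the same in each case. Depth limits the RNA-fragmented pair most, where 1 read of a gene of 2000 exon bases stood for 0.231 RPKM in small intestine and 0.106 in colon, against 0.0295 and 0.0229 in the cDNA-fragmented pair.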
